A study of Mus musculus with 2 samples.

Results

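Antigen presentation was described here through 32 mouse genes of the MHC class I and class II pathways, in organoids given the cytokine RankL and in untreated organoids. The genes were 10 of the class II pathway, 21 of the class I pathway and Ubd, and they were found as array probes whose RefSeq accession maps to the gene. Of the 32 genes, 30 had at least 1 such probe (46 probes in all), and 21 were measured, that is, well above background on both arrays in at least 1 of the RNAs. The whole array held 32196 genes or accessions, of which 12877 were measured. Class I supplied 17 of its 21 genes to the measured set and class II 3 of its 10.

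RankL binds the receptor RANK, which signals through NF-kB, and it drives intestinal epithelium to form M cells, the antigen-sampling cells over Peyer's patches. The treated group was small-intestinal organoids of wild-type mice grown with recombinant mouse RankL (50 to 200 ng/ml), and their medium was renewed on day 2 and day 5. The other group was wild-type organoids grown without RankL, and both were cultured with EGF, Noggin and R-spondin. The exact dose, the harvest time, the mouse strain with its H2 haplotype, and the number of mice are not given in the labels. Crypt cultures of this kind are grown from epithelium, without the immune cells of the gut wall, which limits them as a model of antigen presentation in tissue.

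MHC class I molecules pair a heavy chain with beta-2 microglobulin and carry peptides made by the proteasome, which reach them through the TAP transporter and a loading complex built around tapasin. MHC class II molecules carry peptides from endosomes, and they depend on the invariant chain Cd74, on H2-DM for peptide exchange and on the transactivator Ciita. Nearly every cell type shows class I, while class II belongs to professional antigen-presenting cells and, after interferon-gamma, to gut epithelium. Ubd (also called FAT10) is a ubiquitin-like tag that sends proteins to the proteasome, and its gene lies within the MHC.

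Promoter windows of 300 bases (250 before the gene's start and 50 after it) were available from RefSeq on build GRCm38.p6 for 25 of the 32 genes, 28 windows in all since H2-K1, H2-DMa and Psme2 have 2 starts each. The windows below belong to 3 genes that met the size rule for a higher level with RankL (Ubd, Tapbp, Psmb8), 2 class I chains with smaller ratios (B2m, H2-K1) and 1 class II chain that was not measured (H2-Aa), so that the 3 outcomes can be read side by side. They lie at chr17:37193642-37193941 (plus strand, Ubd), chr17:33919228-33919527 (plus, Tapbp), chr17:34197945-34198244 (plus, Psmb8), chr2:122147437-122147736 (plus, B2m), chr17:34000298-34000597 (minus, H2-K1) and chr17:34287774-34288073 (minus, H2-Aa). All are written 5′ to 3′ along the gene, and capitals mark matches on either strand to the Y box of MHC promoters (ATTGG), the interferon response core (GAAANNGAA), the STAT element GAS (TTCNNNGAA), the Ets core (GGAAGT) and the NF-kB motif.
Ubd: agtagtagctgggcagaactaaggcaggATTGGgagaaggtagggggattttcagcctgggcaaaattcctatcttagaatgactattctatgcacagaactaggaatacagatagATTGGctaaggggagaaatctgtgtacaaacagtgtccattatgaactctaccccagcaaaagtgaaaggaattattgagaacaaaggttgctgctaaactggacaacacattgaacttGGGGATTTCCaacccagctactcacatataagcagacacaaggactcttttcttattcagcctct
Tapbp: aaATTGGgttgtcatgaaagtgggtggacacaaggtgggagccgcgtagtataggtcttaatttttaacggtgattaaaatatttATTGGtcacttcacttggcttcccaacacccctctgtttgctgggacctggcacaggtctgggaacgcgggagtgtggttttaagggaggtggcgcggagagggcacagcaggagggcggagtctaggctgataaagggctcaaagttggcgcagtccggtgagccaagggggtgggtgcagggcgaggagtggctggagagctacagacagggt
Psmb8: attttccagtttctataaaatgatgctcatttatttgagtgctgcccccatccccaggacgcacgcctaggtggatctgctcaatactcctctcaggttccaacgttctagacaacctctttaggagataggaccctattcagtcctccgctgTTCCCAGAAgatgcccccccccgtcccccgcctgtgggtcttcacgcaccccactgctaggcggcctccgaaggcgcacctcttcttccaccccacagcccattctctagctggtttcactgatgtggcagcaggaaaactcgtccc
B2m: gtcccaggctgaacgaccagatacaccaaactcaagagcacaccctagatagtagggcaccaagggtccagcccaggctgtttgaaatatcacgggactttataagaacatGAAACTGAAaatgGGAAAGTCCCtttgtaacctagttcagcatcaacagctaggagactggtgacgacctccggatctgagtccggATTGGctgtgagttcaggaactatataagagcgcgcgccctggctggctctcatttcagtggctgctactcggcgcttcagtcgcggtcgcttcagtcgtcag
H2-K1: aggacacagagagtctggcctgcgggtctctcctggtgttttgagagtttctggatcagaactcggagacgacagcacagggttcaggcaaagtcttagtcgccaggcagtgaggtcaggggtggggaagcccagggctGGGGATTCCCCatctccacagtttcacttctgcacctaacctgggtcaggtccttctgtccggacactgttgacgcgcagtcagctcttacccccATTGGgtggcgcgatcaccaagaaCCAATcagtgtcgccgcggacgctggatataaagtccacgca
H2-Aa: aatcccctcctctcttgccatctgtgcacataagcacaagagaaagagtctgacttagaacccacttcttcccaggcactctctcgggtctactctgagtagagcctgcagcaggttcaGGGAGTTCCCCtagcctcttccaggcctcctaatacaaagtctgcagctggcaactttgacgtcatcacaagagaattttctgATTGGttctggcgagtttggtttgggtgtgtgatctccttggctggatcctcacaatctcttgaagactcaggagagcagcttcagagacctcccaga

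The NF-kB motif was found in at least 1 window of 7 of the 25 genes (B2m, H2-Aa, H2-D1, H2-K1, H2-M3, Ifi30 and Ubd), against 7.81% of the 27025 genes in the table. Counted by window, it was in 8 of 28, against 6.93% of 32851. In Ubd it lay at -15 to -6 from the start, in B2m at -126 to -117, in H2-K1 at -111 to -101 (-125 to -115 from the gene's other start) and in H2-Aa at -131 to -121, the H2-K1 and H2-Aa runs each holding overlapping matches. The Y box was in a window of 18 of the 25 genes, against 41.1% of all genes (19 of 28 windows, against 37.4%), and it was in those of both B2m and the unmeasured H2-Aa. The interferon response core in the form GAAANNGAA was in 4 genes (B2m, Erap1, H2-T23 and Psme1), against 9.76% of all genes. For that core, only the order with GAAA before GAA was searched. The H2-K1, H2-D1 and H2-M3 windows hold the run tttcacttc, which on its other strand has GAA before GAAA. Such runs were not counted, so a window without a match may still hold another form of the element. GAS was in 2 genes (H2-M3 and Psmb8), against 9.55%. The Ets core was in 4 (Canx, H2-Oa, Pdia3 and Psme2), against 26.5%. The Tapbp window held a pair of Y boxes and no NF-kB match, while the H2-Aa and Ubd windows held both motifs. Motif matches describe the letters in these windows only.

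The data were 2 arrays, each hybridised with both RNAs in 2 colours, and the second was the dye swap of the first. They therefore hold 1 RNA pair, no test was possible, and no p-value is given. Each ratio is the log2 ratio of RankL over untreated, and ± gives the SD between the 2 arrays, which measures technical error and holds nothing of how cultures vary. A gene was called higher or lower if its mean ratio reached 1 in size (2-fold) and each array's own ratio reached 0.5 with the same sign. Between 38.3% and 43.4% of the 43379 non-control spots were well above background in the RankL RNA and between 39.6% and 40.1% in the untreated RNA. The median ratio over all measured genes was 0.0086. The epithelial markers were well above background for 10 of 10 genes, with a median ratio of -0.055, a range of -0.92 (Krt18) to 2.40 (Krt20) and 1 call, Krt20 as higher. The M cell markers met the size rule as higher with RankL in 7 of 7, against 5.47% of all measured genes, with a median ratio of 4.88. These markers were chosen with earlier results of these data known, so the count is not independent support.

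Of the 21 measured genes, 5 met the rule as higher with RankL (Ubd, Cd74, Tapbp, Tapbpl and Psmb8), against 5.47% of all measured genes, and 0 as lower, against 2.5%. The other 16 met neither rule. The ratio was above 0 on both arrays in 16 of the 21, against 37.3% of all measured genes, and below 0 on both in 2 (Ifi30 and Canx). Of those above 0, H2-M3, Cd1d1 and Tap2 passed the background filter through the RankL RNA alone, which favours a ratio above 0. Of the 14 class I genes above background in both RNAs, 12 had a mean ratio above 0. That is a looser rule than above 0 on both arrays, so the 37.3% does not apply to it. The median ratio of all genes above background in both RNAs was 0.0060. The median of the 21 ratios was 0.45. In the plot of ratios by gene, the mean of each of the 5 lies past the 2-fold line, though the array 2 point of Psmb8 (0.91) falls short of it, and most class I genes between that line and 0. In bulk RNA, a change in the number of cells of a type and a change in RNA per cell cannot be told apart.

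**Figure D1:**
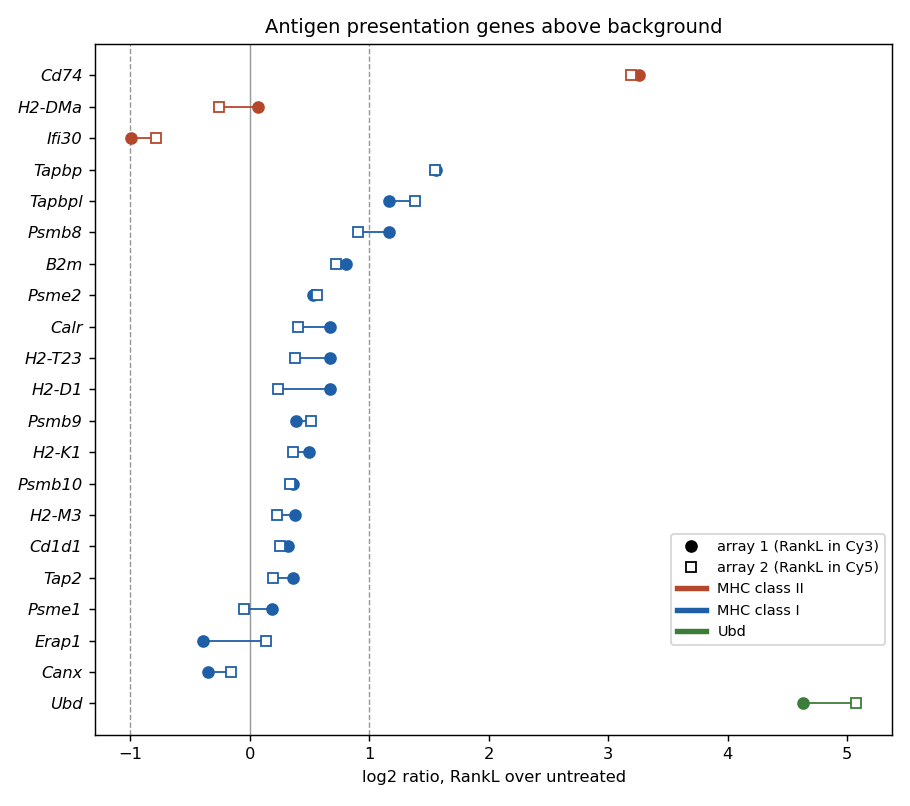
Log2 ratio of RankL over untreated (horizontal axis) for the 21 measured genes, class II above, class I in the middle and Ubd at the foot. Filled circles are array 1 and open squares the dye swap, array 2. The dashed lines mark 2-fold. Ubd and Cd74 stand at 4.86 and 3.23, and 14 of the 17 class I genes have both points above 0. Among these, H2-M3, Cd1d1 and Tap2 passed the background filter through the RankL RNA alone.

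Ubd had the highest ratio of the set. Its normalized log2 signal was 13.37 and 13.33 in RankL RNA on arrays 1 and 2, against 8.74 and 8.26 in untreated RNA. The ratios were 4.63 and 5.08, with a mean of 4.86 ± 0.31 or 29.0-fold, and no value of the RankL RNA came near one of the untreated RNA. Before normalization, its spot in the Cy3 channel read 9226 units over a local background of 25 with RankL (array 1) and 292.5 over 24.5 without it (array 2). As a ubiquitin-like modifier Ubd was set beside 16 genes of related pathways, of which 13 were measured. Of these 1, Uba7, met the rule as higher at 2.70 ± 0.012, against 5.47% of all measured genes. Uba7 encodes the enzyme that activates the modifier ISG15, and Isg15 itself was above background on 1 array with RankL and on 0 arrays without it. Uba6 and Ube2z, which activate and conjugate FAT10, stood at 0.0043 ± 0.014 and 0.26 ± 0.29. Nub1, which binds FAT10, stood at 0.87 ± 0.033, with 0.15 on its other probe.

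Class II gave a mixed picture. Cd74, the invariant chain that fills the class II groove during assembly and escorts it to endosomes, had log2 signals of 10.66 and 10.40 in RankL RNA, against 7.40 and 7.21 in untreated RNA. Its ratios of 3.26 and 3.19 average 3.23 ± 0.051 or 9.36-fold, and the scanner software's log2 ratio was 4.03. The signals of the RankL and untreated RNA lay far apart on both arrays, and the raw Cy3 spot read 1431.5 with RankL and 122.5 without it. Ifi30, a thiol reductase that unfolds antigens in endosomes, had log2 signals of 10.09 and 10.19 in RankL RNA, against 11.08 and 10.98 in untreated RNA. Its mean ratio was -0.89 ± 0.14, short of the 2-fold line, although it met the rule as lower at -1.02 when arrays were centred on their median in place of loess. H2-DMa, a chain of the peptide exchanger H2-DM, had ratios of 0.068 and -0.26 on arrays 1 and 2, so the arrays differed in sign, and its signals of 6.69 and 6.50 with RankL overlapped those of 6.62 and 6.76 without it. Its mean was -0.094 ± 0.23, and -0.67 in the scanner software's ratios.

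The class II chains themselves were not measured. H2-Aa (2 probes) and H2-Ab1 (3 probes) encode the alpha and beta chains of I-A, and neither was well above background in either RNA on either array. H2-Ab1 has a probe printed in 10 spots, and its mean Cy3 spot signal was 49.4 over a background of 23.35 with RankL and 47.7 over 23.45 without it. H2-DMb1 (the partner of H2-DMa), H2-Oa and H2-Ob (the chains of H2-O, which restrains H2-DM) and Ciita were likewise above background on 0 arrays in both RNAs. No probe matched H2-Eb1, the beta chain of I-E, which was not analysed here. Cd74 was thus the 1 class II gene that met the rule. Of 5 further class II genes listed, 4 had a probe and Marchf8, a ligase that removes class II from the surface, was measured at 0.47 ± 0.26.

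**Figure D2:**
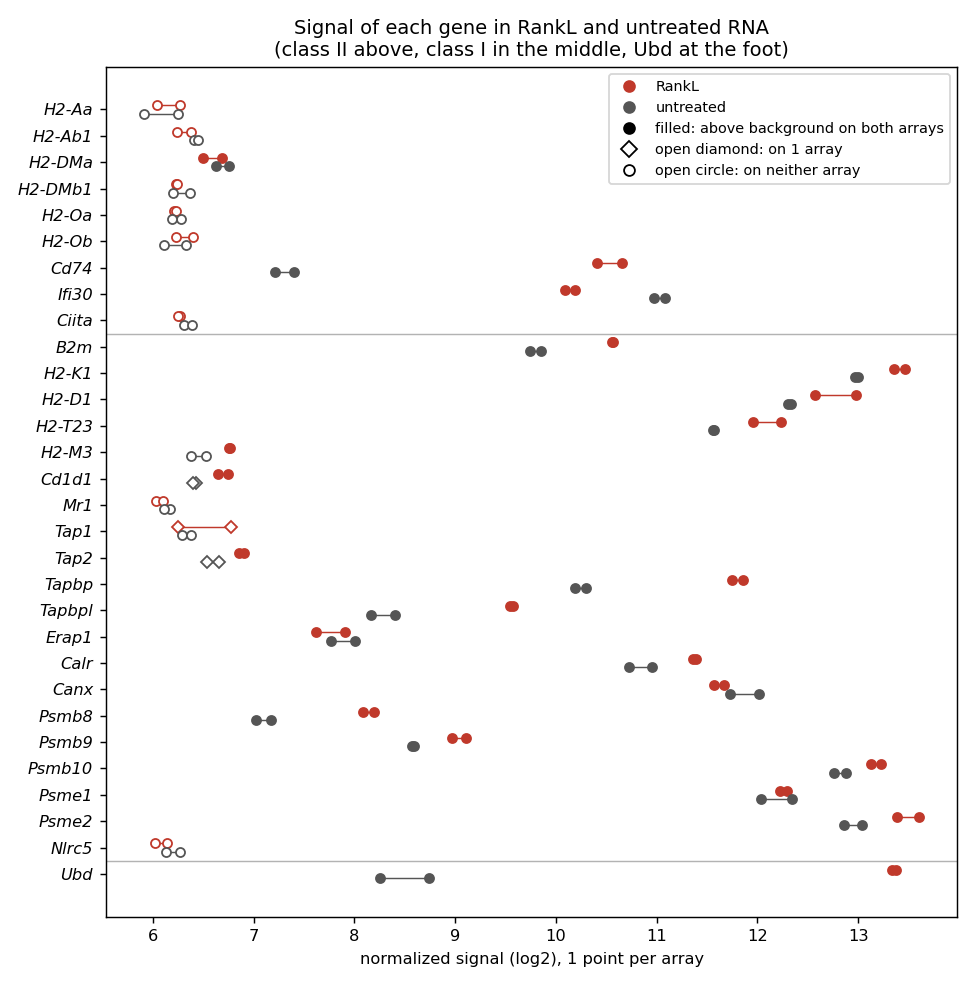
Normalized log2 signal (horizontal axis) of the 30 genes with a probe, in RankL RNA (red, upper of each pair) and untreated RNA (grey, lower), with 1 point per array. Filled points are well above background on both arrays, open diamonds on 1 and open circles on neither. The 2 plotted class II chains are open in both RNAs, while Cd74 and Ubd are filled and separated. Signals are to be read within a gene, since probes differ.

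The class I chains had small ratios of the same sign. All 6 measured of the 7 listed lay above 0 on both arrays, with a median of 0.44 and 0 calls. H2-M3 and Cd1d1 among them passed the background filter through the RankL RNA alone, which favours a ratio above 0. The 4 above background in both RNAs had a median of 0.49. B2m, the light chain of every class I molecule, had log2 signals of 10.55 and 10.57 with RankL, against 9.74 and 9.85 without it, and a mean ratio of 0.77 ± 0.062, with 0.62 on its other probe. The RankL signals lay above the untreated signals on both arrays. Of the classical heavy chains, H2-K1 stood at 0.43 ± 0.099 and H2-D1 at 0.46 ± 0.31. The 3 H2-K1 probes did not give the same value, as the others read 0.23 and -0.23, so its direction depends on the probe, while the second H2-D1 probe read 0.47.

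The nonclassical chains were similar in size. H2-T23, the Qa-1 molecule read by NK cell receptors, had ratios of 0.67 and 0.38, a mean of 0.53 ± 0.21. H2-M3, which presents N-formylated peptides, was well above background with RankL on both arrays and on 0 arrays without it. Its ratios were 0.38 and 0.23, a mean of 0.31 ± 0.11 or 1.24-fold. The other H2-M3 probe read 0.012 and was above background on 0 arrays in both RNAs. Cd1d1, which presents lipids to NKT cells, stood at 0.29 ± 0.046 (0.67 in the scanner software's ratios) and was above background on 2 arrays with RankL and on 1 without it. Mr1, which presents vitamin metabolites to MAIT cells, was above background on 0 arrays in either RNA. Class I heavy chain genes are near-identical in sequence, so a probe of 1 of them can bind RNA of another. Of 18 further class I genes listed, 14 had a probe and 9 were measured, with a median of 0.34 and 0 calls, and the 4 measured H2-Q10 probes ranged from -0.79 to 0.36.

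Peptide loading held 2 of the 3 class I calls. Tapbp encodes tapasin, which bridges class I and TAP, and had log2 signals of 11.86 and 11.74 with RankL, against 10.30 and 10.19 without it. The mean ratio was 1.55 ± 0.0075 or 2.94-fold, but its other probe read 0.37, and the median of both probes, 0.96, would not meet the rule. Tapbpl encodes TAPBPR, a tapasin-like peptide editor, and had log2 signals of 9.57 and 9.55 with RankL, against 8.40 and 8.16 without it, a mean ratio of 1.28 ± 0.16 or 2.42-fold. On both arrays each gene's RankL signal exceeded its untreated signal by more than the arrays differed from each other. Tap2, a subunit of the peptide transporter, stood at 0.28 ± 0.12 (0.90 in the scanner software's ratios) and was above background on 2 arrays with RankL and on 1 without it. Its partner Tap1 was above background on 1 array with RankL and on 0 without it, with ratios of 0.48 and -0.13, and was not counted as measured. Erap1, which trims peptides in the endoplasmic reticulum, had ratios of -0.39 and 0.14, which differ in sign.

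The general chaperones of class I folding did not meet the rule. Calr (calreticulin) stood at 0.54 ± 0.19, with 0.15 on its other probe, and Canx (calnexin) at -0.25 ± 0.13, with -0.34 and -0.24 on its others. Calr was above 0 and Canx below 0 on both arrays. No probe matched Pdia3, the disulfide isomerase of the loading complex.

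The immunoproteasome was measured in full, 5 of 5 genes, with 1 call as higher, against 5.47% of all measured genes, and a median of 0.45. Psmb8 (LMP7) is 1 of the catalytic subunits that replace those of the standard proteasome. Its log2 signal was 8.19 and 8.08 with RankL, against 7.03 and 7.17 without it, a mean ratio of 1.04 ± 0.18 or 2.05-fold, with 1.15 on its other probe. The RankL and untreated signals did not overlap, but the ratio lies at the 2-fold line, and Psmb8 did not meet the rule on array 2 alone (0.91) or with median centring (0.98), while the scanner software's ratio was 1.61. The other catalytic subunits, Psmb9 (LMP2) and Psmb10 (MECL-1), stood at 0.45 ± 0.089 and 0.35 ± 0.016. The PA28 activator genes gave 0.55 ± 0.027 for Psme2 and 0.072 ± 0.17 for Psme1, whose arrays differed in sign and whose mean turned to -0.13 with median centring. The 17 genes of the standard proteasome and its other regulators, all measured, had a median of 0.21 and 0 calls, with Psma6 (0.60 ± 0.15) and Psmb6 (0.52 ± 0.088) farthest from 0. That median turned to -0.021 with median centring, under which the immunoproteasome median was 0.29.

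Set side by side, the class I median was 0.45 over 17 genes, with a range of -0.25 to 1.55, and the class II median -0.094 over 3 genes, with a range of -0.89 to 3.23. The difference of the medians was 0.55, and no test of it was possible with 1 RNA pair. The class I median was 0.50 and 0.36 on arrays 1 and 2, and the class II median 0.068 and -0.26, so the sign of the class II median differed between arrays. That class II median is the value of 1 gene, H2-DMa, between Cd74 above it and Ifi30 below it. H2-DMa is dim, with log2 signals of 6.50 to 6.76, so the difference of the medians does not describe class II as a whole. Of the measured class I genes 3 were called higher, 0 lower and 14 neither, and of the measured class II genes 1, 0 and 2. Over all measured genes, 5.47% were called higher and 2.5% lower. What also differed was the number of genes without a measurement, 3 of the 20 class I genes with a probe (Mr1, Nlrc5 and Tap1) and 6 of the 9 class II genes with one. With the unmeasured probes included, the medians were 0.39 for class I and -0.048 for class II. The latter is the value of H2-DMb1, a gene at background. The normexp offset draws such ratios towards 0, so this setting cannot compare the classes. Neither class transactivator was measured, as Nlrc5 (class I) and Ciita (class II) were above background on 0 arrays in both RNAs.

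**Figure D3:**
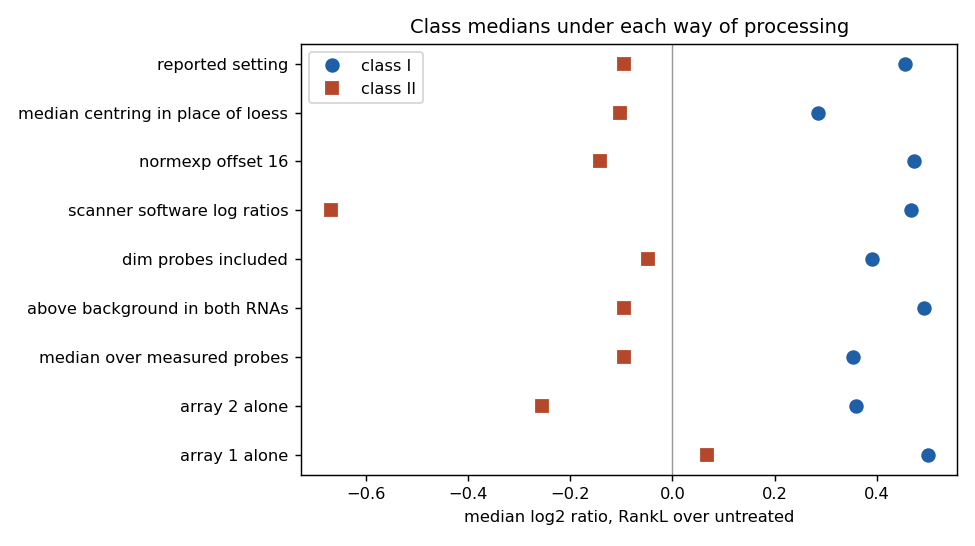
Median log2 ratio of RankL over untreated (horizontal axis) of the measured class I genes (blue circles) and class II genes (orange squares), 1 line for each way of processing. Class I stayed between 0.29 and 0.50. Class II, with 3 measured genes, ran from -0.67 to 0.068, and both ends are values of the dim gene H2-DMa.

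On chromosome 17, which carries 17 of the 32 genes, the class II region runs Psmb9, Tap1, Psmb8, Tap2, H2-Ob, H2-Ab1, H2-Aa, H2-Eb1 with 0 other coding genes between neighbours in the RefSeq table. Psmb8 was the 1 gene of that run called higher. Its neighbours Psmb9 and Tap2 stood at 0.45 and 0.28, Tap1 was not measured, and H2-Ob, H2-Ab1 and H2-Aa on the same run were above background on 0 arrays, while H2-Eb1 had no matched probe. Tapbp and Ubd lie on either side of that run on the chromosome, and 37 coding genes separate Ubd from H2-T23.

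Genes that act with the class II pathway included several calls. Of 8 listed endosomal proteases 7 were measured and 3 were higher, against 5.47% of all measured genes. This list, like the others, was chosen with earlier results of these data known. Ctsh, an aminopeptidase cathepsin, rose by 3.29 ± 0.014, Ctsl, which cleaves the invariant chain in thymic epithelium, by 1.36 ± 0.49, and Ctsd by 1.27 ± 0.37, with 0.77 on the second Ctsd probe. Ctsz stood at 0.71 ± 0.32 and Lgmn, an asparaginyl endopeptidase, at -0.62 ± 0.15. The median of the 7 was 0.71.

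Of 15 transcription factors linked to MHC promoters 13 were measured, with a median of 0.053. Of these, 2 met the rule as higher and 1 as lower, against 5.47% and 2.5% of all measured genes. Spib, an Ets factor needed for M cells, rose by 4.21 ± 0.28, and Relb, a subunit of the noncanonical NF-kB pathway, by 1.82 ± 0.24. Irf8, an interferon regulatory factor, fell by 1.43 on the log2 scale (SD 0.13), with -0.72 on its other probe. Irf1, a driver of class I genes after interferon-gamma, stood at 0.71 ± 0.038, and Rfxap, a subunit of the RFX complex at class II promoters, at -0.66 ± 0.083. Rfx5, the DNA-binding RFX subunit, was above background on 0 arrays.

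Costimulation genes, which give T cells their second signal, were mostly unmeasured, as 3 of the 11 with a probe passed. Cd80, Cd86, Cd40 and Cd274 were above background on 0 arrays in both RNAs. Icam1, an adhesion molecule for T cells, was the 1 gene called higher, against 5.47% of all measured genes, with ratios of 1.09 and 1.12. It was above background on 2 arrays with RankL and on 0 without it, so it was at least 1.94-fold higher, and the scanner software's log2 ratio was 3.93. Cd83 stood at -0.99 ± 0.24 and Icosl at 0.43 ± 0.20.

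**Figure D4:**
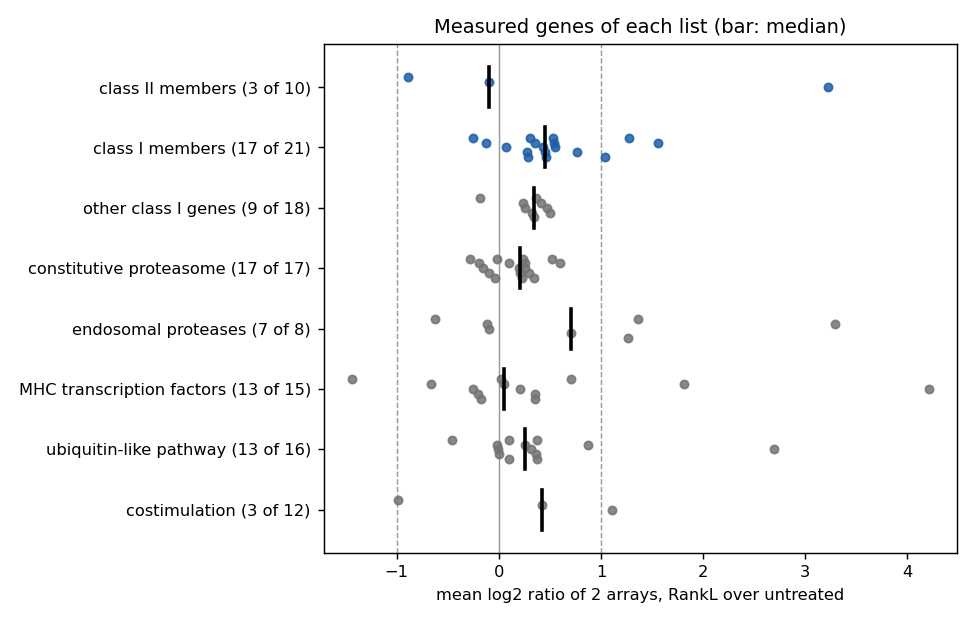
Mean log2 ratio of RankL over untreated (horizontal axis) of each measured gene in the 2 classes (blue) and in 6 further lists (grey), with the number measured of the number listed. Black bars are medians and dashed lines mark 2-fold. The class I median is 0.45, that of the standard proteasome 0.21 and that of the endosomal proteases 0.71, with Ctsh and Spib farthest to the right.

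As Cd74, Spib and several of these genes are also made by leukocytes, markers of immune cells were read beside them. Of 13 dendritic cell and macrophage markers with a probe, Xcr1 was measured, at 0.17 ± 0.042. Zbtb46 and Cx3cr1 were above background on 1 array with RankL and on 0 without it, at 0.20 and 0.038. Their ratios from the scanner software were 0.56 and 0.98. Itgax, Itgam, Csf1r, Adgre1, Lyz2, Fcgr1, Mrc1, Flt3, Ccr7 and Batf3 were above background on 0 arrays in both RNAs. The summed linear signal of that list was 1028 and 1023 with RankL, against 980 and 971 without it. A probe at background still adds to such a sum, as the normexp offset of 50 is part of every signal. The sum of a mostly unmeasured list is thus largely background and cannot show whether these cells were present. Of 6 B cell markers, Cd79b (1.80 ± 0.040) and Blnk (1.41 ± 0.062) met the rule as higher, against 5.47% of all measured genes. Cd79a, Ms4a1, Cd22 and Pax5 were above background on 0 arrays in both RNAs. The summed B cell signal was 15364.5 and 15699 with RankL, against 6083 and 5880 without it. It rests on Cd79b and Blnk, as the other B cell markers were at background. A sum is weighted towards the brighter of these, so it is not joint support from both.

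Of 5 markers shared by leukocytes, Coro1a was measured at 0.50 ± 0.016, with 0.76 on its other probe. It was above background on 2 arrays with RankL and on 1 without it. Ptprc, Laptm5, Cd53 and Cd52 were above background on 0 arrays. The list summed to 384 and 381 with RankL, against 321 and 355 without it. None of 8 T and NK cell markers was measured, with sums of 419 and 430 with RankL, against 434 and 424 without it, and the Cd3e spot was left out as an outlier on array 1. Stromal and endothelial markers had 4 of 9 measured and 0 calls, and summed to 2727 and 2661 with RankL, against 1953 and 1935 without it. The sums of the shared leukocyte list and of the T and NK cell list are again mostly background. The part of these cell types in the ratios above was not tested.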

How the data were processed

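The authors deposited scanner output for 2 arrays with spot intensity (median pixel brightness of spot and local background, in Cy3 and Cy5), not normalized, per the file headers. It came from Agilent Feature Extraction 10.5.1.1 per the file headers, and 8.5.1.1 per the submitters' processing notes. The authors' deposited log10 ratios of red over green, dye-normalized by that software per the file headers, served as an alternative. The series matrix held the same ratios with the sign of array 1 turned (largest difference 5e-06, median 0 in both columns), so its direction is RankL over untreated. Per the labels, Cy3 carried RankL on array 1 and untreated RNA on array 2, and the arrays count as 1 replicate. The files give the median spot signal, which was used in place of the planned mean.

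In limma 3.58.1 under R 4.3.3, background was corrected by normexp (offset 50) and ratios by loess within each array. Control spots (1639 of 45018) had weight 0. Outlier spots (170 and 164 outside controls) were dropped and 0 were saturated. The 41174 probes gave 16458 measured, and 26918 were named by RefSeq accession. A gene took its brightest measured probe. "At least" folds set the mean log2 signal of the brighter RNA against the floor of the dimmer one, per channel after loess and Aquantile, where the floor is the dim probe's own signal or, if that is lower, the least signal among probes well above background. The script was tested on simulated data. Number of unused value columns: 0.

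The genes and lists were chosen with earlier results of these data known. All 32 genes are accounted for. From the related lists the genes meeting the size rule are named. The 2 farthest from 0 otherwise are named in some of these lists, but not in the ubiquitin-like and further class I lists. Markers and partner genes chosen after their values were seen are named as well. Alternatives were median centring, a normexp offset of 16, the software's ratios, dim probes included, probes above background in both RNAs, the median over probes, each array alone and a 1.5-fold rule. From the marker and related lists, 2 further genes were left out and are not reported here. Array coordinates were not used, and promoter windows come from RefSeq GRCm38.p6.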

Additional observations from a re-analysis of the deposited data

How the results depend on the processing

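With 1 RNA pair the depth of replication, and not the number of spots, limits every value, and ratios of dim probes are compressed towards 0 by the normexp offset. Between 4 and 6 genes were called higher over all alternatives. Median centring instead of loess gave these shifts. The class I median was 0.29, the difference between class medians was 0.39, and 1 gene (Ifi30) was called lower. With the scanner software's ratios, the class II median was -0.67 and the difference 1.13. The class II median is the value of H2-DMa, a dim gene, in every setting limited to measured genes. The class I median was 0.35 as the median over measured probes, and 1 gene was called lower under the 1.5-fold rule. Leaving out 1 array gave a class I median of 0.36 to 0.50, a class II median of -0.26 to 0.068, a difference of 0.43 to 0.61 and 4 to 5 genes called higher, with 0 lower. The cause of these shifts was not tested. Of 165 single-gene values under the alternatives, 160 kept their direction and their side of the 2-fold line or moved within the spread between arrays. Of the rest, 1 moved (Psme1, -0.13 with median centring), 1 came past the line (Ifi30, -1.02) and 3 lost their call (Psmb8 in 2 and Tapbp in 1). Many of the 165 could not move, so the 160 overstates stability. Including dim probes, or asking for signal in both RNAs, left each gene's value unchanged. A single array always lies within the spread between arrays. Over all measured genes, 704 were higher and 322 lower, against 1148 and 781 with the software's ratios, 885 and 428 with offset 16, 610 and 389 with median centring, and 1249 and 775 under the 1.5-fold rule. No paired analysis was possible because the 2 arrays hold 1 RNA pair.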
